A study of Mus musculus with 24 samples.

Results

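Adam8, Adam9, Adam10, Adam12, Adam15, Adam17 and Adam19, 7 of the 56065 genes in the deposited table, were followed through the choroid of mice with and without laser injury. The genes were listed by symbol and matched to their Ensembl identifiers, and all 7 had a mean normalized count of at least 10, the level needed for testing. The set was taken up because the measured level of Adam8 was higher in the libraries with laser, so differences with laser are given for these 7 genes as a description, without a test. RNA was sequenced from 24 libraries, 4 of wild type and 4 of Ceacam1-/- mice without laser, and 9 of wild type and 7 of Ceacam1-/- mice with laser. The Ceacam1-/- mice carry a germline deletion of exons 1 and 2 of Ceacam1 and were compared with wild type littermates on a C57BL/6J background, of both sexes and, where not stated otherwise, 6 to 8 weeks old. With laser means 6 spots per eye (150 mW, 200 µm, 100 ms) from a frequency-doubled Nd:YAG laser, applied under anaesthesia to induce choroidal neovascularization. The time between laser and dissection and the sex of each mouse are not given. Choroid here stands for the dissected complex of RPE, choroid and sclera. Summed over genes, the 24 libraries held 23704346 to 35094410 normalized counts each, with 25021 to 27964 genes above 0. A normalized count is the estimated number of reads of a gene after scaling for library size and average transcript length, so values of 1 gene can be compared between libraries.

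ADAM proteins (a disintegrin and metalloproteinase) are membrane-anchored enzymes that cut the outer part off other membrane proteins, a step called shedding, which releases ligands such as TNF and EGF family members, starts Notch signalling and removes adhesion molecules from the cell surface. The catalytic domain binds a zinc ion through histidines, a prodomain keeps it inactive until it is removed, in many members by furin-type convertases and in ADAM8 by the enzyme itself, and the disintegrin domain can bind integrins. In the eye, shedding enzymes have been studied in pathological vessel growth, leukocyte entry and retinal degeneration.

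The stretch of coding sequence around the zinc-binding histidines was read for the 7 genes from the annotated canonical transcripts (GRCm39). It shows that all 7 are of the catalytic kind and how many of its bases they share. Each line gives 36 bases of the coding strand, 5′ to 3′, with the codons of the 3 zinc-binding histidines in capitals.
Adam8: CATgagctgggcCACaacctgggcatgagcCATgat
Adam9: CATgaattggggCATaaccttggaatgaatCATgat
Adam10: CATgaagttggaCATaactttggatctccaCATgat
Adam12: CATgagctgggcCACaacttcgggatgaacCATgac
Adam15: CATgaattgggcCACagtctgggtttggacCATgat
Adam17: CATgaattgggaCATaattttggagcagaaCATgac
Adam19: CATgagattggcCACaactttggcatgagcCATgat

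These stretches lie in a coding exon, exon 11 in every member but Adam10, at chr7:139567803-139567838 (minus strand) for Adam8, chr8:25480339-25480374 (minus) for Adam9, chr7:133562884-133562919 (minus) for Adam12, chr3:89252084-89252119 (minus) for Adam15, chr12:21386730-21386765 (minus) for Adam17 and chr11:46015877-46015912 (plus) for Adam19. In Adam10 the stretch is split between exons 9 and 10, from chr9:70661578 to chr9:70668870 on the plus strand. Adam8 shared 32 of the 36 bases with Adam19, 31 with Adam12 and 28 with both Adam9 and Adam15, but 22 with Adam10 and 21 with Adam17. Adam10 and Adam17 shared 28 bases with each other. In these counts different codons for the same amino acid also count as differences. They therefore give no order of likeness of the active sites as proteins. Of the 28 other ADAM genes of the annotation, 14 had such a site in their canonical transcript, and the others, among them the neuronal genes Adam11, Adam22 and Adam23, had none.

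Some libraries stood apart from the others. The 8 photoreceptor markers, such as Gnat1, Sag and Prph2, which belong to the retina and not to the dissected tissue, had a mean log2 value between 15.0 and 15.9 in 5 libraries and between 7.9 and 13.9 in the other 19. The 5 photoreceptor-rich libraries, a division made after the values were seen, were wild type library 21 and Ceacam1-/- library 23 without laser and Ceacam1-/- libraries 14, 15 and 18 with laser, and none was a wild type library with laser. Libraries 14, 15 and 18 also had the lowest summed RPE markers of all, 69856, 57476 and 40572 normalized counts against 189672 to 353691 in the other 4 Ceacam1-/- libraries with laser. The most abundant RPE marker over all libraries was Ttr, though Rgr was the higher by group mean in wild type without laser (143544 against 132307 normalized counts), and no RPE, endothelial or photoreceptor marker was at 0 throughout a group. Values are therefore given with and without the 5 libraries. The other 19 still differed in other content. Summed surface epithelium markers were 331241 in library 22 and 473589 in library 28, against 177.7 in library 26, all without laser. Skeletal muscle markers came to 945731 in Ceacam1-/- library 25 without laser and 78390 in wild type library 19 with laser. These are bulk samples, in which fewer cells of a type and less RNA per cell cannot be told apart.

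Ceacam1 itself was measured as a check of the labels. Without laser it had 957.6, 5027, 1242 and 4596 normalized counts in the 4 wild type libraries and 405, 505, 508 and 1171 in the 4 Ceacam1-/- libraries. With laser it lay between 773.5 and 8367 (median 996) in wild type and between 67.8 and 905 (median 335) in Ceacam1-/- libraries. Most Ceacam1-/- libraries were below all wild type libraries of the same treatment, with 1 overlapping value without laser and 1 with laser. These were libraries 28 and 15, whose summed markers of the surface epithelium came to 473589 and 470175 normalized counts. The wild type libraries highest in Ceacam1, 22, 27 and 19, had 331241, 83007 and 155045. All other libraries had at most 16778. The part of the surface epithelium in the Ceacam1 values was not tested. The log2 difference between genotypes was -1.95 (SE 0.60, limma adjusted p = 0.999) without and -2.17 (SE 0.52, limma adjusted p = 0.104) with laser. The value covers all exons of the gene, the undeleted ones included.

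Levels of different genes were compared as normalized counts per kb of the canonical transcript. In wild type choroid without laser the order was Adam15 with 812 ± 334 normalized counts per kb, Adam9 with 524 ± 125, Adam10 with 365 ± 43.4, Adam17 with 245 ± 48.9, Adam19 with 58.6 ± 18.3, Adam8 with 25.8 ± 8.88 and Adam12 with 7.20 ± 4.29 (SD, n = 4). Between neighbours in this order the ranges of the libraries overlapped for Adam15 and Adam9, and for no other pair. In Ceacam1-/- choroid without laser the order was the same, but the ranges also overlapped between Adam9, Adam10 and Adam17 and between Adam19 and Adam8. With laser, Adam8 stood above Adam19 in all 9 wild type libraries (254 ± 62.2 against 125.5 ± 29.8 normalized counts per kb) and in all 7 Ceacam1-/- libraries (184 ± 75.6 against 86.8 ± 47.5), whereas without laser Adam19 was the higher in all 4 libraries of either genotype. With laser the ranges of all neighbours overlapped. The top of the order rests on the length used, since Adam15 has 86 annotated transcripts and 7942 bases of annotated exons against 2825 bases in its canonical transcript. Per kb of all annotated exons, Adam9 was first in every group, and Adam15 came after Adam10 in 3 of the 4 groups.

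**Figure D1:**
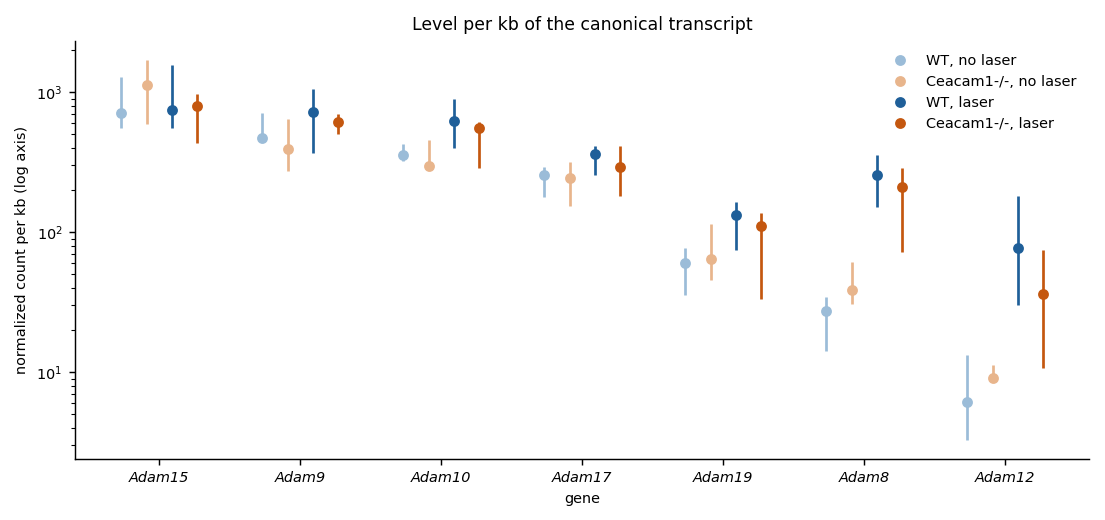
Normalized count per kb of the canonical transcript (log axis) for the 7 genes in 4 groups, with the median as a point and the lowest to highest library as a line. Adam8 lay below Adam19 without laser, at means of 25.8 and 58.6 per kb in wild type, and above it with laser, at 254 and 125.5.

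The summed level per kb of the 7 genes and the 28 other ADAM genes was 2621 ± 314 in wild type (n = 4) and 2959 ± 392 in Ceacam1-/- libraries (n = 4) without laser, and 3504 ± 323 (n = 9) and 3093 ± 450 (n = 7) with laser (SD). The 7 genes made up 77.4% and 76.3% of it without laser and 85.4% and 78.4% with laser, in wild type and Ceacam1-/- respectively. The share of Adam8 was 0.993% ± 0.358 in wild type without laser and 7.28% ± 1.75 with laser, and 1.42% ± 0.376 and 5.78% ± 1.81 in Ceacam1-/-. Adam15, Adam9 and Adam10 remained the largest shares, with 25.01%, 19.5% and 17.9% in wild type libraries with laser.

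Adam8 (ENSMUSG00000025473, chr7:139558845-139572475, minus strand, 24 exons) encodes a protease of myeloid cells, also known as CD156, that is found on monocytes, macrophages and neutrophils. Its normalized count was 74.9, 44.0, 96.7 and 106 in the 4 wild type libraries without laser, and 469 at the lowest, 798 at the median and 1108 at the highest of the 9 with laser. In Ceacam1-/- mice it was 102, 139.9, 94.8 and 189 without laser, and 225, 649 and 902 at the lowest, median and highest of the 7 libraries with laser. In both genotypes every library with laser was above every library without, and the lowest 3 with laser were the photoreceptor-rich Ceacam1-/- libraries 18, 15 and 14. The log2 difference with laser was 3.32 (SE 0.31), or 9.95-fold on the scale of log2 of the value plus 1, in wild type and 2.05 (SE 0.32), or 4.13-fold, in Ceacam1-/-. By this difference Adam8 ranked 76 from the top of the 19950 genes tested in wild type, and 531 in Ceacam1-/-. Without the 5 photoreceptor-rich libraries the log2 differences were 3.31 (SE 0.27) and 2.43 (SE 0.31), and the Ceacam1-/- libraries with laser lay between 649 and 902 normalized counts, within the range of wild type.

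**Figure D2:**
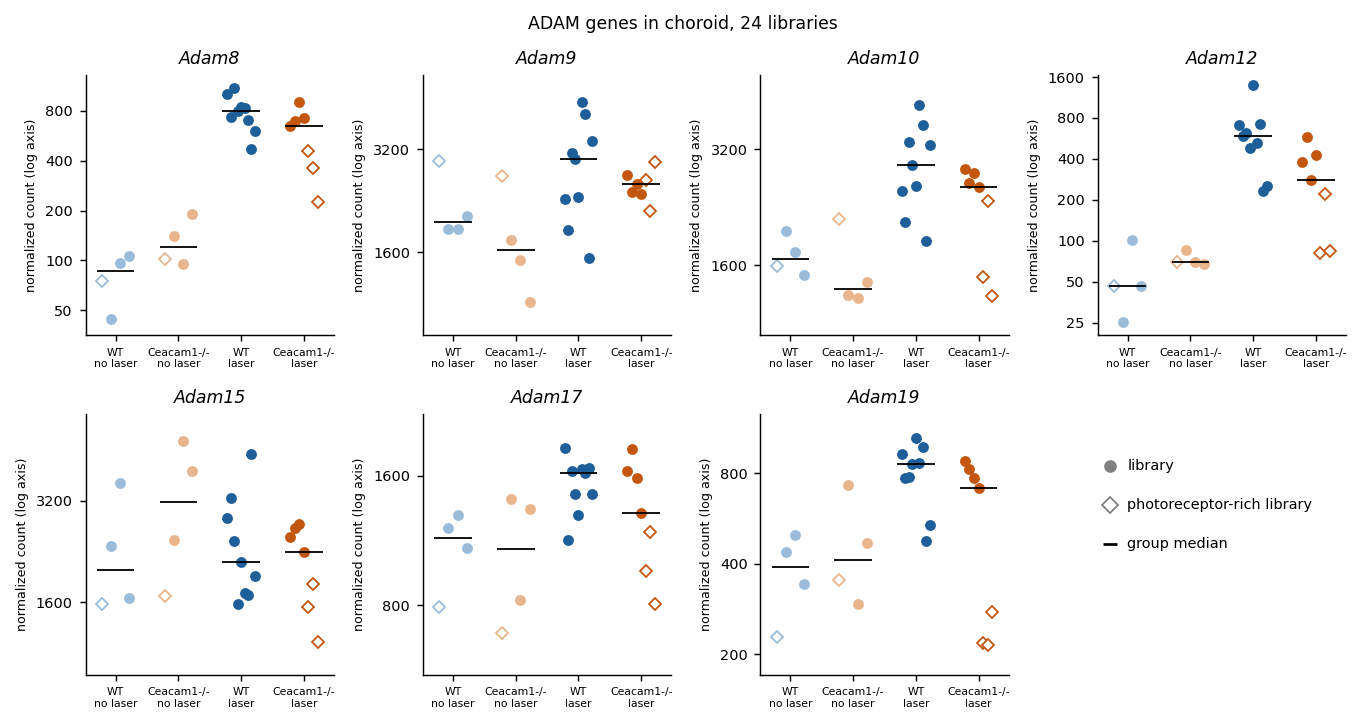
Normalized count (log axis) of each of the 7 genes in every library, in wild type (WT) and Ceacam1-/- mice without and with laser, with the group median as a bar and photoreceptor-rich libraries as open diamonds. Adam8 with laser lay at or above 225 and without laser at or below 189, while Adam9 and Adam15 overlapped between groups.

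Adam12 and Adam19 belong to the meltrins, ADAM proteases of mesenchymal and muscle cells that are known to shed ligands of the EGF family and to take part in the remodelling of the matrix. Adam12 (ENSMUSG00000054555, chr7:133484928-133833875, minus strand) had 46.8, 25.3, 102 and 46.8 normalized counts in the wild type libraries without laser, and 233, 592 and 1391 at the lowest, median and highest with laser. In Ceacam1-/- it had 69.7, 85.9, 69.6 and 67.2 without laser, and 82.1, 279 and 576 at the lowest, median and highest with laser. All wild type libraries with laser were above all without, but in Ceacam1-/- the photoreceptor-rich libraries 14 and 18, with 82.1 and 84.1, lay below the highest library without laser. The log2 difference with laser was 3.44 (SE 0.49) in wild type and 1.68 (SE 0.51) in Ceacam1-/-, where it was 2.43 (SE 0.50) without the 5 photoreceptor-rich libraries. Over all libraries with laser the spread of Adam12 was wide. Its coefficient of variation was 55.4% in wild type and 62.3% in Ceacam1-/-, against 24.5% and 41.0% for Adam8. The wild type value includes library 12, with 1391 normalized counts against 233 to 726 in the others. The Ceacam1-/- values include libraries 14, 15 and 18, and the spread was narrower without them. Adam12 then had 416.7 ± 123.8 normalized counts and Adam8 744.1 ± 109.8 (SD, n = 4).

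Adam19 (ENSMUSG00000011256, chr11:45946775-46038172, plus strand), which cleaves neuregulins, had 229, 437.5, 498 and 343 normalized counts in wild type without laser, and 477, 858 and 1053 at the lowest, median and highest with laser. In Ceacam1-/- it had 353, 732, 294 and 471 without laser, and 214, 715 and 881 at the lowest, median and highest with laser. In wild type 8 of 9 libraries with laser were above all 4 without. In Ceacam1-/- the 4 libraries with few photoreceptor transcripts lay between 715 and 881, and the 3 photoreceptor-rich ones between 214 and 277, below 4 of 4 libraries without laser. The log2 difference with laser was 1.11 (SE 0.37) in wild type, and in Ceacam1-/- it was 0.12 (SE 0.39) with all libraries and 0.77 (SE 0.28) without the 5 photoreceptor-rich ones.

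Adam10 and Adam17 are the main sheddases of most cells: ADAM10 opens Notch receptors to further cleavage and is the chief α-secretase of the amyloid precursor protein, and ADAM17 releases TNF and ligands of the EGF receptor. Adam10 (ENSMUSG00000054693, chr9:70586221-70687511, plus strand) had 1593, 1967, 1731 and 1505 normalized counts in wild type without laser and 1847, 2917 and 4179 at the lowest, median and highest with laser. In Ceacam1-/- it had 2107, 1336, 1314 and 1442 without laser, the first of these in photoreceptor-rich library 23, and 1327, 2563 and 2841 at the lowest, median and highest with laser. In wild type 8 of 9 libraries with laser exceeded all those without, and in Ceacam1-/- 5 of 7 did. The log2 difference was 0.75 (SE 0.22) in wild type and 0.53 (SE 0.23) in Ceacam1-/-, and without the 5 photoreceptor-rich libraries 0.72 (SE 0.19) and 0.98 (SE 0.22).

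Adam17 (ENSMUSG00000052593, chr12:21373510-21423672, minus strand) had a mean of 1096 ± 219 normalized counts in wild type (n = 4) and 1067 ± 363 in Ceacam1-/- (n = 4) without laser, and 1531 ± 219 (n = 9) and 1335 ± 378 (n = 7) with laser (SD). Its groups overlapped in both genotypes, with 7 of 9 wild type and 3 of 7 Ceacam1-/- libraries with laser above all libraries of their genotype without. The log2 difference with laser was 0.49 (SE 0.21) and 0.34 (SE 0.22), and without the 5 photoreceptor-rich libraries 0.35 (SE 0.17) and 0.45 (SE 0.19).

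Adam9 and Adam15 overlapped between libraries with and without laser in both genotypes. Adam9 (ENSMUSG00000031555, chr8:25439626-25507096, minus strand), a broadly expressed sheddase, had 2181 ± 521 and 1766 ± 648 normalized counts without laser and 2885 ± 971 and 2518 ± 261 with laser (SD, wild type and Ceacam1-/-, n = 4, 4, 9 and 7). Among libraries without laser the photoreceptor-rich one was the highest of each genotype, with 2953 in wild type and 2666 in Ceacam1-/-. Adam15 (ENSMUSG00000028041, chr3:89245846-89257511, minus strand), named metargidin and known from endothelial cells, had 2295 ± 945 and 3209 ± 1417 without laser and 2436 ± 931 and 2102 ± 582 with laser (SD, same order). The photoreceptor-rich libraries were the lowest of their groups for Adam15 in all 3 groups that held any. The log2 difference with laser was 0.35 (SE 0.24) and 0.57 (SE 0.25) for Adam9, and 0.09 (SE 0.30) and -0.55 (SE 0.31) for Adam15. Without the 5 photoreceptor-rich libraries it was 0.51 (SE 0.25) and 0.79 (SE 0.28) for Adam9, and -0.06 (SE 0.29) and -0.50 (SE 0.33) for Adam15.

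Across the 7 genes the log2 difference with laser ran from 0.09 to 3.44 (median 0.75) in wild type, where all 7 were positive, and from -0.55 to 2.05 (median 0.53) in Ceacam1-/-, where 6 were. Without the 5 photoreceptor-rich libraries 6 of 7 were positive in either genotype, Adam15 being the exception in both. The median over all 19950 genes tested was -0.10 and 0.02. Every library with laser was above every library without for 2 members, Adam8 and Adam12, in wild type, and for Adam8 in Ceacam1-/-. Over all genes tested this held for 4.50% in wild type and 1.17% in Ceacam1-/-, and the reverse, every library with laser below, held for 1.75% and 0.962% and for no member. Among the 19 libraries that are not photoreceptor-rich the count was 2 members in wild type and 4 members, Adam8, Adam9, Adam10 and Adam12, in Ceacam1-/-, where only 4 libraries were set against 3. In the same libraries 4.91% and 14.1% of all genes were above without overlap, and 2.83% and 12.8% below. Since the set was selected on the laser contrast of Adam8, with the values of all 7 genes known, nothing is read from these counts.

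**Figure D3:**
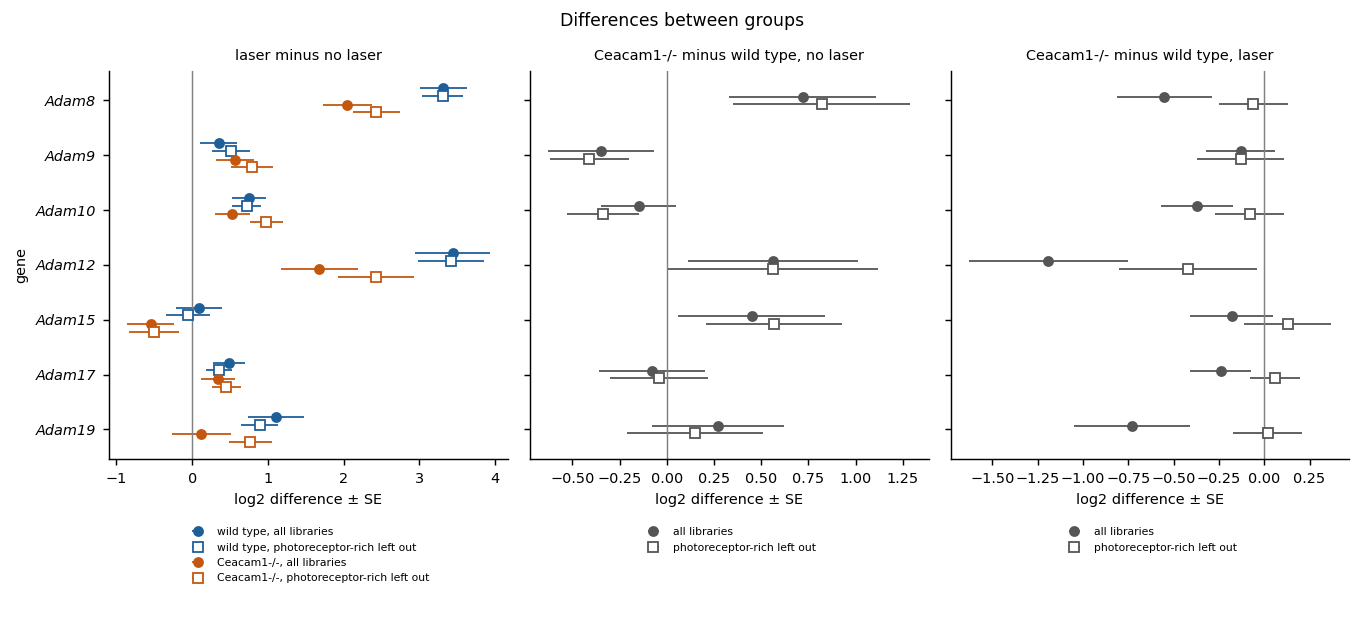
Log2 difference and its SE from limma for the 7 genes, with all libraries (filled) and with the 5 photoreceptor-rich libraries left out (open), for laser in each genotype (left) and for Ceacam1-/- minus wild type without (middle) and with laser (right). With laser all 7 differences between genotypes were below 0 with all libraries, and 4 of 7 were with those libraries left out.

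The comparisons of the genotypes were not the reason for the choice of the genes and were tested with limma. P-values were adjusted by the Benjamini-Hochberg method over all genes tested. The set was listed with earlier results known, though, and the Adam8 values with laser enter both the choice and the comparison with laser. Without laser (4 against 4 libraries) 0 of the 7 genes passed, as did 0 (0%) of 20057 genes, of which 307 had an unadjusted p under 0.05, none of them a member. The log2 difference, Ceacam1-/- minus wild type, ran from -0.35 (SE 0.28) for Adam9 to 0.72 (SE 0.39) for Adam8, and limma gave every member an adjusted p of 0.999. Adam8 was higher in 2 of the 4 Ceacam1-/- libraries than in any wild type library. The study, with DESeq2 and sex as a covariate, did report genes with an adjusted p under 0.05 between the genotypes in healthy choroid. The fit here held no sex covariate. It gave the deleted gene Ceacam1, at a log2 difference of -1.95 (SE 0.60), a limma adjusted p of 0.999. That no gene passed is therefore not read as an absence of differences.

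With laser (7 against 9 libraries) all 7 genes had a lower mean in Ceacam1-/-, and 0 of 7 passed the test, where 4 (0.0202%) of 19757 genes did. The differences were largest for Adam12, with -1.19 (SE 0.44, limma adjusted p = 0.160), Adam19, with -0.73 (SE 0.32, limma adjusted p = 0.198), and Adam8, with -0.55 (SE 0.26, limma adjusted p = 0.216). These 3 genes had an unadjusted p under 0.05, as did 22.7% of all genes tested. For the other 4 genes the differences lay between -0.37 (Adam10) and -0.13 (Adam9), with adjusted p from limma up to 0.704. Once libraries 14, 15 and 18 were left out, the difference was -0.42 (SE 0.38) for Adam12, 0.02 (SE 0.19) for Adam19 and -0.06 (SE 0.19) for Adam8, with limma adjusted p values of 0.831, 0.985 and 0.975. The 7 differences then ran from -0.42 to 0.13. With photoreceptor markers as a covariate instead, it was -0.64 (SE 0.39) for Adam12, -0.3 (SE 0.28) for Adam19 and -0.3 (SE 0.26) for Adam8. The limma adjusted p values were 0.700, 0.815 and 0.793. In libraries 14, 15 and 18 photoreceptor markers were higher than in the other Ceacam1-/- libraries with laser. Markers of RPE, myeloid cells, fibroblasts, endothelium, pericytes and smooth muscle, and nerve and glia were lower there. The part of these markers in the difference between genotypes was not tested beyond leaving the libraries out and the covariate.

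Whether the laser difference itself depended on genotype was tested as an interaction for the 6 genes other than Adam8, since the level of Adam8 with laser was the reason for the choice of the set. None of the 6 passed, nor did any (0%) of the 19950 genes, of which 1241 had an unadjusted p under 0.05 in limma. The laser difference in Ceacam1-/- minus that in wild type was -1.76 for Adam12 (SE 0.70, limma adjusted p = 0.640, unadjusted p = 0.0199) and -1.0 for Adam19 (SE 0.53, limma adjusted p = 0.640), and between -0.64 and 0.22 for the other 4. For Adam8 the same quantity was -1.27 (SE 0.45), given as a description. Without the 5 photoreceptor-rich libraries it was -0.98 (SE 0.66) for Adam12, -0.12 (SE 0.38) for Adam19 and -0.87 (SE 0.41) for Adam8.

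Markers of cell types the tissue can hold were set beside the members. These lists, and those of genes around the proteases given below, were chosen with earlier results of these data known. Their counts beside the share of all genes are therefore descriptions. Of 10 myeloid markers 9 rose with laser in wild type (limma, adjusted p under 0.05), against 4.23% of all genes, with a median log2 difference of 2.30, and 7 of 10 rose in Ceacam1-/-, against 2.07%, with a median of 1.59. Lyz2, lysozyme of myeloid cells and the most abundant of the list, rose by 2.74 (SE 0.40, limma adjusted p = 0.00013) and 2.44 (SE 0.41, limma adjusted p = 0.002). Tyrobp, an adaptor of myeloid receptors, rose by 2.39 (SE 0.38) and 1.56 (SE 0.40), whereas Csf1r, the receptor of macrophage colony-stimulating factor, differed by 0.89 (SE 0.38, limma adjusted p = 0.186) and -0.28 (SE 0.40, limma adjusted p = 0.730). Without the 5 photoreceptor-rich libraries 9 of 10 rose in either genotype, where 5.76% and 8.66% of all genes did.

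The summed myeloid markers came to 9113, 11444, 19209 and 12787 normalized counts in wild type libraries without laser and to 42824, 68917 and 116781 at the lowest, median and highest with laser. In Ceacam1-/- they came to 8662, 10754, 10671 and 12613 without laser and to 14487, 54963 and 82176 with laser. No myeloid marker was at 0 in any group, and the 3 lowest libraries with laser, with 24471, 21576 and 14487, were again Ceacam1-/- 14, 15 and 18. The log2 value of Adam8 minus the mean log2 value of the 10 markers was -2.62 ± 0.61 and -1.95 ± 0.16 without laser and -1.47 ± 0.26 and -1.43 ± 0.24 with laser (SD, wild type and Ceacam1-/-, n = 4, 4, 9 and 7). These values describe a gene chosen for its level with laser, and nothing is read from their difference between groups, which depends on the markers listed. Libraries 14, 15 and 18 had -0.99, -1.26 and -1.45 on this scale. The part of myeloid cells in the Adam8 difference was not tested further.

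Of 8 fibroblast markers 3 rose with laser in wild type (Postn, Col3a1 and Lum) and 1 in Ceacam1-/- (Lum), with medians of 1.26 and 1.31, where 4.23% and 2.07% of all genes rose, and without the 5 photoreceptor-rich libraries 5 (Pdgfra, Col1a2, Col3a1, Lum and Postn) and 7 rose, where 5.76% and 8.66% of all genes did. Their most abundant gene over all libraries was Col1a1, followed by Dcn, which was the higher by group mean in wild type without laser (48112 against 41160), and none was at 0 throughout a group. Their sum was 86075, 146543, 194916 and 133451 normalized counts in wild type without laser and 203989, 335517 and 477011 at the lowest, median and highest with laser. In Ceacam1-/- it was 39116, 152513, 72577 and 220478 without laser, 433590 to 677821 in 4 libraries with laser and 46744, 112299 and 90793 in libraries 14, 15 and 18. Relative to the mean log2 value of these markers, Adam12 was higher with laser by 1.90 in wild type and 0.55 in Ceacam1-/-, and Adam19 was lower, by 0.43 and 1.02, which is again a description that depends on the markers listed. The part of fibroblasts in these differences was not tested.

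**Figure D4:**
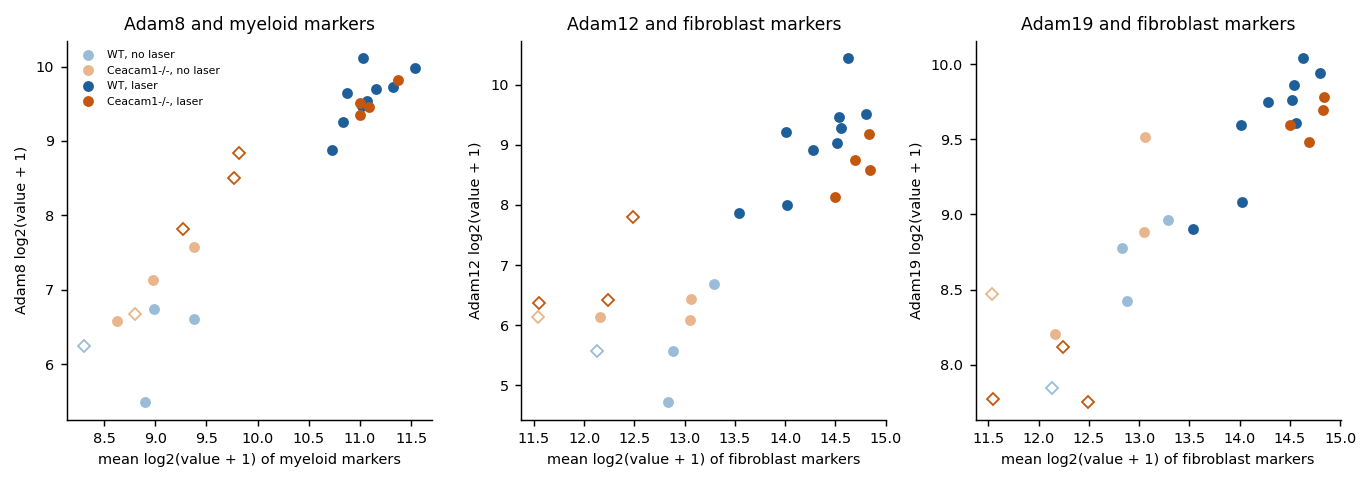
Log2(value + 1) of Adam8 against the mean log2(value + 1) of 10 myeloid markers, and of Adam12 and Adam19 against that of 8 fibroblast markers, for 24 libraries, with photoreceptor-rich libraries as open diamonds. In Adam8, at 225 to 455 normalized counts, the 3 photoreceptor-rich Ceacam1-/- libraries with laser lie between the libraries without laser and the others with laser. In myeloid markers library 18 of these lies in the range without laser, and in fibroblast markers all 3 do.

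Neutrophil markers were low. Of 10, 6 could be tested, and 3 rose with laser in wild type and 2 in Ceacam1-/-, against 4.23% and 2.07% of all genes, S100a8 and Mmp8 in both and Csf3r in wild type, from a mean of 46.4 without to 165 with laser. Without the photoreceptor-rich libraries these 3 genes rose in both genotypes, against 5.76% and 8.66% of all genes, Csf3r in Ceacam1-/- by 2.11 (limma adjusted p = 0.003). The list had no gene that was the most abundant throughout, with Camp highest without laser (means of 89.8 in wild type and 118 in Ceacam1-/-) and, with laser, Mmp8 in wild type (206) and S100a8 in Ceacam1-/- (175). Ly6g and Elane were at 0 in all libraries without laser and Mpo in all Ceacam1-/- libraries with laser. The summed list lay between 186 and 375 without and between 305.5 and 1557 with laser. No lymphocyte marker (6 tested), and no marker of endothelium, pericytes and smooth muscle, RPE, photoreceptors, skeletal muscle, lens, surface epithelium or nerve and glia (8 tested in each), passed the test in either laser contrast with all libraries. With the 5 libraries left out, skeletal muscle markers fell, 1 of 8 (Myh2) in wild type, where 2.63% of all genes fell, and 7 of 8 in Ceacam1-/-, where 6.26% did. Trp63, 1 of 8 markers of the surface epithelium, also fell in Ceacam1-/-.

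Within groups, libraries with more of one gene also had more of others, which was described with Pearson's r and Spearman's rho of log2 values over 24 libraries after the group means were subtracted. The libraries share depth and tissue composition, so these values are descriptions. Adam8 went most with the myeloid markers (r = 0.81, rho = 0.79, and r = 0.76 over the 19 libraries without the photoreceptor-rich ones). With the 2 libraries farthest from the median of each marker list left out, r was 0.69 with myeloid and 0.72 with fibroblast markers, so this order rests on a few libraries. Adam19 went most with fibroblast markers (r = 0.93), and with the myeloid markers it had an r of 0.86, above that of Adam8. Adam12 had an r of 0.76 with fibroblast and 0.72 with myeloid markers (rho = 0.77 for both), and 0.63 and 0.69 without the 2 farthest libraries. Adam17 went most with markers of pericytes and smooth muscle (r = 0.83). Adam15 went with endothelial markers (r = 0.78) and against photoreceptor markers (r = -0.78), while Adam9 went with photoreceptor markers (r = 0.48, and 0.35 over the 19 libraries). Over those 19 libraries Adam9 had a higher r with RPE markers (0.39), and it ran against endothelial markers (-0.45). Among the members, Adam12 and Adam19 (r = 0.73), Adam17 and Adam19 (r = 0.70) and Adam8 and Adam12 (r = 0.69) were the most alike, while Adam9 and Adam15 ran against each other (r = -0.75). Over the 19 libraries without the photoreceptor-rich ones, Adam9 and Adam10 were the most alike (r = 0.81, against 0.55 over 24), ahead of Adam12 and Adam19 (0.72), and Adam17 and Adam19 had an r of 0.57.

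**Figure D5:**
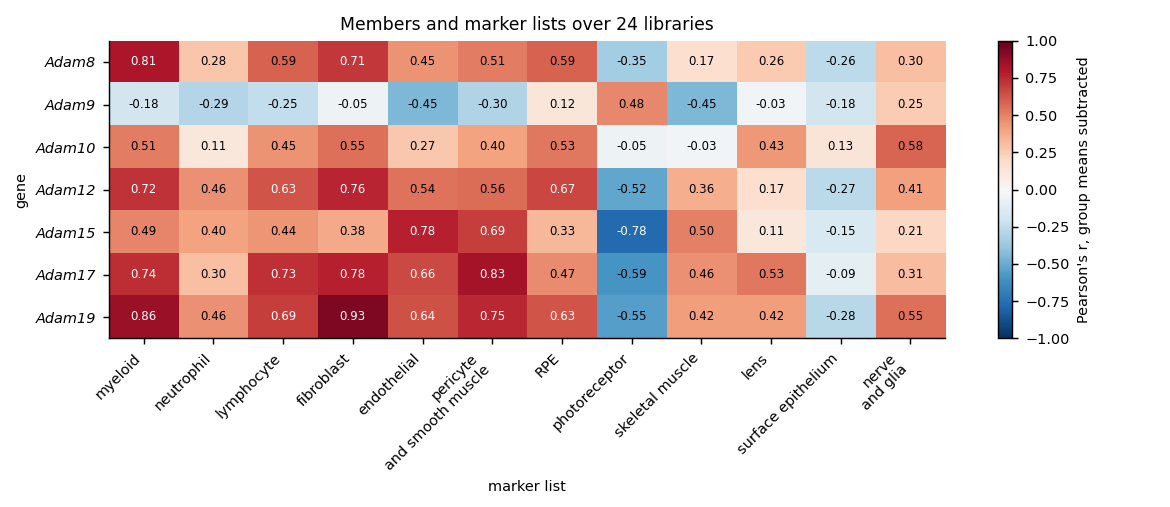
Pearson's r between the log2 value of each of the 7 genes (rows) and the mean log2 value of each marker list (columns) over 24 libraries with group means subtracted, from -1 (blue) to 1 (red). The highest value is that of Adam19 with fibroblast markers, 0.93, and the lowest that of Adam15 with photoreceptor markers, -0.78.

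Of 15736 other protein-coding genes tested, those most like Adam8 by this r were Atp6v0d2 (a subunit of the vacuolar proton pump, r = 0.88), Slc11a1 (a metal transporter of phagosomes, 0.86), Pld3 (0.84), Il7r, Pik3cd, Tnfrsf10b and Lyz2 (0.83 each) and Fgr (a Src family kinase of myeloid cells, 0.82). By Spearman's rho 4 of these 8 were among the first 8. With the group means kept, which adds the difference between groups, the first 5 were Cd300lf (0.98), Fgr, Itgb2 (the β2 integrin chain of leukocytes) and Il7r (0.97 each) and Spp1 (osteopontin, 0.96). The genes most like Adam12 were Arf4 (0.84), Cthrc1 (0.84) and Col11a1 (0.83), and those most like Adam19 were Esyt1 (0.96), Lox (lysyl oxidase, 0.95) and Col3a1 (a fibrillar collagen, 0.95). For Adam9 they were Tmem30a, Azin1 and Serinc1 (0.94 to 0.95), for Adam10 Stx7, Sgpl1 and Klhl42 (0.91 each), for Adam15 C130074G19Rik, Slc50a1 and Ptpru (0.93 to 0.94) and for Adam17 Vrk2, Antxr1 and Itga1 (0.89 to 0.91).

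Genes around the proteases were counted in lists. Of 5 inhibitors of metalloproteinases (Timp1 to Timp4 and Reck), Timp1 rose in both genotypes, from 173 ± 76.2 to 4682 ± 2247 normalized counts in wild type, where 4.23% of all genes rose (log2 difference 4.69, SE 0.41, limma adjusted p = 4.6e-07) and from 192 ± 66.9 to 3787 ± 1780 in Ceacam1-/-, where 2.07% did (4.23, SE 0.43, limma adjusted p = 7.7e-06) (SD, n = 4, 9, 4 and 7). Timp4 fell in Ceacam1-/- by 2.38 (SE 0.53, limma adjusted p = 0.014), where 1.65% of all genes were lower, and differed by -1.32 (SE 0.51, limma adjusted p = 0.138) in wild type. The median of the 5 was 0.42 in wild type and 0.36 in Ceacam1-/-. With those libraries left out, Timp2 rose as well in both genotypes, so that 2 of 5 rose against 5.76% and 8.66% of all genes, by 0.90 (limma adjusted p = 0.009) and 1.52 (limma adjusted p = 0.00025), and Timp4 fell in Ceacam1-/- by 1.93 (limma adjusted p = 0.022), where 6.26% of all genes were lower.

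Of 15 genes of maturation and trafficking, which hold the convertases that remove the prodomain (such as Furin), the iRhoms that carry ADAM17 (Rhbdf1 and Rhbdf2), the tetraspanins that carry ADAM10 and the adaptors Sh3pxd2a and Sh3pxd2b, 0 rose and 0 fell in wild type, where 4.23% of all genes rose and 1.05% fell, with a median of 0.20. In Ceacam1-/- the tetraspanin Tspan33 fell by 1.60 (SE 0.42, limma adjusted p = 0.036), from 502 ± 149.8 (n = 4) to 189 ± 112 (n = 7) normalized counts (SD), and in wild type it differed by -1.11 (SE 0.41, limma adjusted p = 0.117). The other 14 did not pass there (median of the list 0.03). Leaving out the photoreceptor-rich libraries, Tspan14 rose in both genotypes, and in Ceacam1-/- Pcsk5 and Sh3pxd2b also rose and Tspan33 fell. That is 1 of 15 higher in wild type, close to the 5.76% of all genes, and 3 higher and 1 lower in Ceacam1-/-, where 8.66% and 6.26% of all genes were.

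Substrates that ADAM proteases are known to shed from immune cells were counted next. Of 18, 16 were tested, and 4 rose in wild type (median of the list 0.86) and 1 in Ceacam1-/- (median 0.22), where 4.23% and 2.07% of all genes rose. Trem2, a receptor of macrophages for lipids, rose from 196 ± 120 to 1318 ± 437 normalized counts in wild type (log2 difference 2.84, SE 0.41, limma adjusted p = 0.00012) and differed by 1.45 (SE 0.42, limma adjusted p = 0.055) in Ceacam1-/- (SD, n = 4 and 9). Selplg, the selectin ligand PSGL-1, rose by 2.03 (SE 0.39, limma adjusted p = 0.003) in wild type, and Tnfrsf1b, the receptor TNFR2, by 1.59 (SE 0.38, limma adjusted p = 0.013). Cxcl16, a membrane-bound chemokine, rose in both genotypes, by 1.11 (SE 0.25, limma adjusted p = 0.008) and 0.92 (SE 0.26, limma adjusted p = 0.047). In the 19 libraries without the photoreceptor-rich ones 6 of 16 rose in either genotype, against 5.76% and 8.66% of all genes, with medians of 0.62 and 0.80. Trem2 and Selplg were then among them in Ceacam1-/- too, with 2.20 (limma adjusted p = 0.00053) and 2.03 (limma adjusted p = 7.8e-05). Csf1r stands in this list and in that of myeloid markers. The myeloid markers rose in the same contrasts, with medians of 2.3 and 1.59 with all libraries. Their part in the differences of these substrates was not tested.

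Of 17 substrates in adhesion and endothelium, Cd44, a receptor for hyaluronan, and Vcam1, an adhesion molecule for leukocytes, rose in wild type, by 1.58 (SE 0.36, limma adjusted p = 0.009) and 1.57 (SE 0.41, limma adjusted p = 0.025), and 0 of 17 passed in Ceacam1-/-, where both differed by 1.12 (SE 0.37) and 0.88 (SE 0.43). The medians of the list were 0.47 and 0.15, and without the photoreceptor-rich libraries 4 rose in wild type (Cd44, Vcam1, Icam1 and Cdh2) and these and Ace in Ceacam1-/-. Cdh5, Kdr and Tie1 stand in this list and among the endothelial markers. Of 8 integrins that disintegrin domains can bind, Itga5, of the fibronectin receptor, rose in wild type by 1.5 (SE 0.34, limma adjusted p = 0.009) and Itga4, of the receptor for Vcam1, in Ceacam1-/- by 1.08 (SE 0.29, limma adjusted p = 0.040). In the other genotype Itga5 differed by 0.72 (SE 0.35) and Itga4 by 0.22 (SE 0.28), and the interaction passed for no gene. With the 5 libraries left out, Itga5, Itgb1 and Itgb5 rose in both genotypes, Itgb3 in wild type and Itga4 in Ceacam1-/-. The shares of all genes called in these fits are those given for the immune substrates.

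In the lists downstream of shedding, 0 genes passed in either genotype with all libraries by limma, where 4.23% of all genes rose and 1.05% fell in wild type and 2.07% and 1.65% in Ceacam1-/-. An unadjusted p under 0.05 was reached by 3993 and 3997 of the 19950 genes. These were 8 ligands of the EGF receptors (medians -0.61 and -0.05), 4 EGF receptors (-0.12 and -0.56), 8 Notch receptors and ligands (0.06 and -0.28), 6 Notch target genes (0.09 and 0.09) and 8 neuronal and amyloid substrates (0.02 and 0.37). The 2 genes of lowest p in the wild type contrast, with their log2 difference in wild type, were, list by list, Hbegf (0.78, SE 0.34) and Areg (-1.62, SE 0.96), Erbb4 (-1.29, SE 0.62) and Egfr (0.80, SE 0.56), Dll4 (0.92, SE 0.32) and Jag2 (-0.49, SE 0.24), Heyl (0.51, SE 0.48) and Hey1 (0.20, SE 0.24), and App (0.46, SE 0.19) and Lrp1 (0.51, SE 0.32). In Ceacam1-/- Areg differed by -3.05 (limma adjusted p = 0.088), Erbb4 by -1.87 (limma adjusted p = 0.100) and Egfr by 1.35 (limma adjusted p = 0.197), and Egf (-0.88, limma adjusted p = 0.131) had a lower p than Hbegf. After the same libraries were left out, Dll4, a Notch ligand of endothelial tip cells, rose in wild type, and in Ceacam1-/- Egfr rose and Areg and Egf fell. Over these lists taken as one such counts lie at or below the share over all genes, of which 5.76% rose in wild type and 8.66% rose and 6.26% fell in Ceacam1-/-. List by list, 1 of 8 Notch receptors and ligands rose in wild type. In Ceacam1-/- 1 of 4 EGF receptors rose and 2 of 8 EGF receptor ligands fell. Each of these lies above that share, but in lists this short a single gene is enough for that, so nothing is read from it. The Notch targets and the neuronal and amyloid substrates had 0 in both genotypes.

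Of the 28 other ADAM genes 13 had a mean of at least 10 normalized counts, 15 lay below it and 8 of these were listed at 0 in every library. In level, the highest per kb over all libraries were Adam33 (114), Adam7 (104), Adam23 (88.1), Adam22 (83.6) and Adam11 (73.7 normalized counts per kb), of which only Adam33 has the catalytic site. None of the 13 passed the test with laser in either genotype (medians -0.33 and -0.16). The lowest p in wild type were those of Adam7 (1.02, SE 0.53, limma adjusted p = 0.279) and Adam5 (1.19, SE 0.64, limma adjusted p = 0.305). Adam28, known from lymphocytes, spanned 0 to 301 normalized counts per kb, with SDs of 261 and 386 around means of 229.7 and 215 normalized counts in the groups without laser. Among the 19 other libraries 1 of the 13, Adam5, rose in Ceacam1-/-, by 2.61 (limma adjusted p = 0.021), where 8.66% of all genes rose, so the count is no more than that share.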

How the data were processed

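RNA of dissected choroid was sequenced by the authors from SMART-Seq libraries, quality checked with FastQC 0.11.5, pseudo-aligned to GRCm39 with salmon 1.10.3 and imported with tximport into DESeq2 1.44.0. The deposited signal values are normalized counts per gene, which the authors scaled for library size and average transcript length. They are not whole reads, so no count test was run. Over which libraries the scaling was made is not given in the sources used here, and the outlier the study removed is not named. SMART-Seq cDNA does not keep the strand, so reads of genes that overlap on opposite strands cannot be told apart.

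Groups were taken from the sample labels. The 7 members and all gene and marker lists were chosen with earlier results of these data known. Differences were computed with limma 3.58.1 (R 4.3.3) with a variance trend on log2(value + 1), for genes with a mean of at least 10, with Benjamini-Hochberg adjustment over all genes tested and a threshold of 0.05. The laser contrasts and the interaction came from 1 model of 24 libraries, the genotype contrasts from the 8 libraries without and the 16 with laser. Both kinds share libraries. Replicates are separate libraries. For the 8 without laser the study gives n as mice, and for those with laser the labels do not say whether each came from another animal, so p-values measure the spread between libraries. The genes named in the text follow a rule: from each pathway list up to 4 that passed in a laser contrast, by p, and if none did, the 2 with the smallest p, then the 8 genes most like Adam8 (5 with group means kept) and the 3 most like each other member. Genes named beside counts made without the photoreceptor-rich libraries, Csf1r, Adam28 and the markers other than the most abundant of each list were chosen after their values were seen.

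The settings varied were the pseudocount (0.5 or 10), the filter (none, or a mean of 50), quantile normalization, array weights, a covariate of Y-linked genes, which libraries entered the model, and each library without laser left out in turn, for levels the length used, and for likeness Spearman's rho. Leaving out the photoreceptor-rich libraries, a photoreceptor covariate and leaving out each library with laser were added after the data were seen. Positions and sequences came from GENCODE vM39 on GRCm39, which matched 99.1% of identifiers. The fits were tested on simulated data. Python 3.11.15 with pandas 2.3.3, numpy 2.4.6, Biopython 1.88 and matplotlib 3.10.9 made the tables and figures.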

Additional observations from a re-analysis of the deposited data

Results flagged for a closer look

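In 4 of the 28 combinations of a gene and a group, 1 library stood apart from the others of its group by a gap that was large against the range of the group. By chance about 1 in 20 groups would be picked out in this way. Adam9 was 2953 normalized counts in wild type library 21 without laser, against 1865 to 2041 in the other 3. Adam10 was 2107 in Ceacam1-/- library 23 without laser, against 1314 to 1442. Both are photoreceptor-rich libraries. Adam12 was 85.9 in Ceacam1-/- library 24 without laser, against 67.2 to 69.7, and 1391 in wild type library 12 with laser, against 233 to 726.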

How the results depend on the processing

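No paired analysis was made because the labels do not link libraries of different groups. All libraries with laser are numbered from 1 to 19 and all those without from 21 to 28. Whether the numbers follow batches is not stated, and a difference along them could not be told apart from laser. The number of genes called with laser in wild type, 1053, was 6505 with array weights, 2274 when the model held only the 13 libraries compared and 1645 without the photoreceptor-rich libraries, and with 1 library left out 479 (without library 21) to 1162, with 554 without library 27. The share of calls that were higher was 80.2% with all libraries, 49.8% with array weights, 69.8% with only the compared libraries and 68.6% without the photoreceptor-rich ones. In Ceacam1-/- the number, 742, was 437 without a filter, 3551 with array weights, 38 with only the 11 libraries compared and 2923 without the photoreceptor-rich libraries, and 148 (without library 25) to 2488 (without library 23) with 1 library left out, with 255 without library 24 and 466 without library 5. There 55.7% of calls were higher, and 53.4%, 94.7% and 58.1% with array weights, only the compared libraries and without the photoreceptor-rich ones, 89.9% without library 25 and 45.6% without library 23. Genotype with laser gave 2 genes with a mean of at least 50, 297 with array weights, 9 with all 24 libraries and 2 without the photoreceptor-rich libraries, and 4 to 61 (without library 19) with 1 library left out, with 25 without library 17 and 7 without library 4. Genotype without laser gave 1 gene with array weights and 0 to 1 (without library 24) with 1 library left out. The interaction gave 0 throughout.

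For the members, Adam8 with laser stayed between 3.05 and 3.47 in wild type and between 1.91 and 2.43 in Ceacam1-/- in all settings. Adam15 with laser in wild type ran from -0.17 to 0.33 and Adam19 in Ceacam1-/- from -0.07 to 0.77. The interaction changed sign for Adam9 (-0.10), Adam15 (0.02) and Adam17 (0.18) with the photoreceptor covariate, for Adam10 (0.26) and Adam17 (0.10) without the photoreceptor-rich libraries, and ran from -0.34 to 0 for Adam17 with 1 library left out. Genotype with laser changed sign for Adam15 (0.21 with array weights, 0.13 without the photoreceptor-rich libraries, 0.12 with the covariate), Adam17 (0.06) and Adam19 (0.02), the last 2 without the photoreceptor-rich libraries. Genotype without laser changed sign for Adam17, to 0.18 with array weights, and it ran from -0.24 to 0.11 with 1 library left out. No member passed the threshold in a tested contrast under any setting. Of 28 places in the order of levels per length 17 were kept with all annotated exons, and 4 of the 8 genes most like Adam8 with Spearman's rho. The causes were not tested. Depth in reads is not known from normalized values, so no floor is given for genes listed at 0.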
